A study of Rattus norvegicus with 12 samples.

Results

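The reactive astrocyte genes described here were Gfap, Vim, Nes, Lcn2, Serpina3n, Cd44, Osmr, Cp, S100a10 and Steap4, which astrocytes are known to express more strongly after brain injury. All 10 had at least 1 probe among the 15154 named genes of the array, and each gene was represented by its brightest probe over the 12 arrays. Expression was measured in primary hippocampal cultures from Wistar rat embryos (E18), kept for 14 to 15 days and submitted to oxygen and glucose deprivation (OGD) for 2 h in a glucose-free, sucrose-containing saline in an anaerobic chamber. Control cultures (Ctrl) spent the same period in saline with glucose in an air/CO2 incubator, and both were then returned to conditioned medium. RNA was collected after 7 h or 24 h of recovery, giving 4 groups (Ctrl 7 h, OGD 7 h, Ctrl 24 h and OGD 24 h) of 3 arrays each, 1 array for each of 3 cultures. The labels call the material hippocampal neurons, and the methods describe mixed cultures in which glia were a minority. A signal therefore came from the RNA of all cells of a dish, so that more cells of a type and more RNA per cell cannot be told apart.

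Astrocytes respond to injury by becoming reactive, a state in which the cells enlarge, rebuild their intermediate filaments and release acute-phase and inflammatory proteins. Gfap, vimentin and nestin form the filaments, and the first of these is the usual histological marker. Cytokines of the interleukin-6 family act on such cells through the shared receptor chain gp130, to which the oncostatin M receptor pairs, and through the transcription factor STAT3. Most of the 10 genes are not exclusive to astrocytes: vimentin, CD44 and S100A10 are also made by fibroblasts, vascular cells and microglia, and nestin by neural progenitors.

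Promoter sequences (250 bases before to 50 after the annotated start) from RefSeq, build GRCr8, were matched for 9 of the 10 genes, S100a10 being the other. They were searched on both strands for the STAT motif TTCNNNGAA and for TGANTCA, a loose form of the AP-1 motif, N being any base. The STAT motif was found in Serpina3n and Steap4 and the loose AP-1 form in Osmr, as TGATTCA. Of the 33469 rat promoters in the same table, 8.87% held the former pattern and 7.33% the latter. The 3 windows with a match are shown. Serpina3n and Steap4 varied together most closely across the arrays, and Osmr encodes the cytokine receptor of the group. Cp also varied closely with Serpina3n and Steap4, but its window held neither motif. Capitals mark the matched motif, 123 bases before the start in Serpina3n (chr6:129088142-129088441, plus strand), 66 before it in Steap4 (chr4:27054720-27055019, minus strand) and 33 before it in Osmr (chr2:57688512-57688811, minus strand). A match in these letters is a description and not evidence of binding.
Serpina3n: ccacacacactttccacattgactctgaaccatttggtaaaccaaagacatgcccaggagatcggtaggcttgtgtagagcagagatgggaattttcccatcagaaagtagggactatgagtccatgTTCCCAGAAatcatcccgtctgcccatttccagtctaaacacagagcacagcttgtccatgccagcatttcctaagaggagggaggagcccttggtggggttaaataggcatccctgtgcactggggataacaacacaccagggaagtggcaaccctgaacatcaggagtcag
Steap4: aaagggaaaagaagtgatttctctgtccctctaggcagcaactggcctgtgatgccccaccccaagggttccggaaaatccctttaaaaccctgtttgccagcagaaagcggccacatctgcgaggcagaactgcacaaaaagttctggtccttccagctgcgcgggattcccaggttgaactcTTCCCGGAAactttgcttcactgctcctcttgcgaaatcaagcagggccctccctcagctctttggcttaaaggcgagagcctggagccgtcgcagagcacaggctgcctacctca
Osmr: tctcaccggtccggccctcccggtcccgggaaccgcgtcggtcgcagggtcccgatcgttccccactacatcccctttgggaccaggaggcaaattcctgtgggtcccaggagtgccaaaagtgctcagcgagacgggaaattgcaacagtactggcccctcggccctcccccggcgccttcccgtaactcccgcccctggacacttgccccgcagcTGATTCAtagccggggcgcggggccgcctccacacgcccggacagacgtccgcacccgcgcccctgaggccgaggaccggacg

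Signals are given as log2 intensity minus the median of all non-control probes on that array, so that a difference of 1 is a 2-fold change. The median intensity of the arrays was between 75.25 and 294.2, the lowest being OGD 24 h replicate 1, and between 78.35 and 87.06% of an array's spots rose well above background. The probes that represent the 10 genes were well above background on all 12 arrays, except that of Steap4 on Ctrl 24 h replicate 1, and none was saturated. Ctrl and OGD arrays that shared a time and a replicate number lay together on 1 of the 6 slides, and 3 of the OGD arrays (OGD 7 h replicates 1 and 2, OGD 24 h replicate 1) were scanned in another session than the Ctrl array of their slide. Ctrl 24 h replicate 1 stood apart: the mean of the 10 genes was 1.80 on this array and between 2.65 and 3.63 on the other Ctrl arrays. For the 10 genes, differences from the fit without a block that rest on it are given with and without it.

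After 7 h of recovery the fitted difference between OGD and Ctrl was positive for all 10 genes, from 0.11 for Gfap to 1.79 for Steap4, but no gene was up-regulated or down-regulated by the study's rule of an unadjusted p under 0.05 with a 2-fold change. At 24 h the difference was positive for 9 of 10 genes and negative for Gfap, and 2 genes, Cd44 and S100a10, were up-regulated by that rule. The median over the 10 genes was 0.64 at 7 h and 1.31 at 24 h, while the median over all named genes was −0.10 and −0.03. Of the 30367 probes, limma with this rule called 2.08% up-regulated at 7 h and 3.71% at 24 h, and 1.66% and 1.96% down-regulated. Of the 15154 named genes, each at its brightest probe, 237 were up-regulated and 313 down-regulated at 7 h. At 24 h these counts were 415 and 360. An unadjusted p under 0.05 with higher signal in OGD was reached by 1 of the 10 genes at 7 h (4.79% of all probes) and by 4 of 10 at 24 h (7.51% of all probes). After Benjamini-Hochberg adjustment, no gene of the group passed at either time, and neither did any other probe (0%); the lowest adjusted p of the group in limma was 0.411 at 7 h and 0.252 at 24 h. All 3 OGD arrays lay above all 3 Ctrl arrays in 1 of 10 genes at 7 h, where 10.6% of all probes did, and in 5 of 10 genes at 24 h, where 10.9% did.

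**Figure D1:**
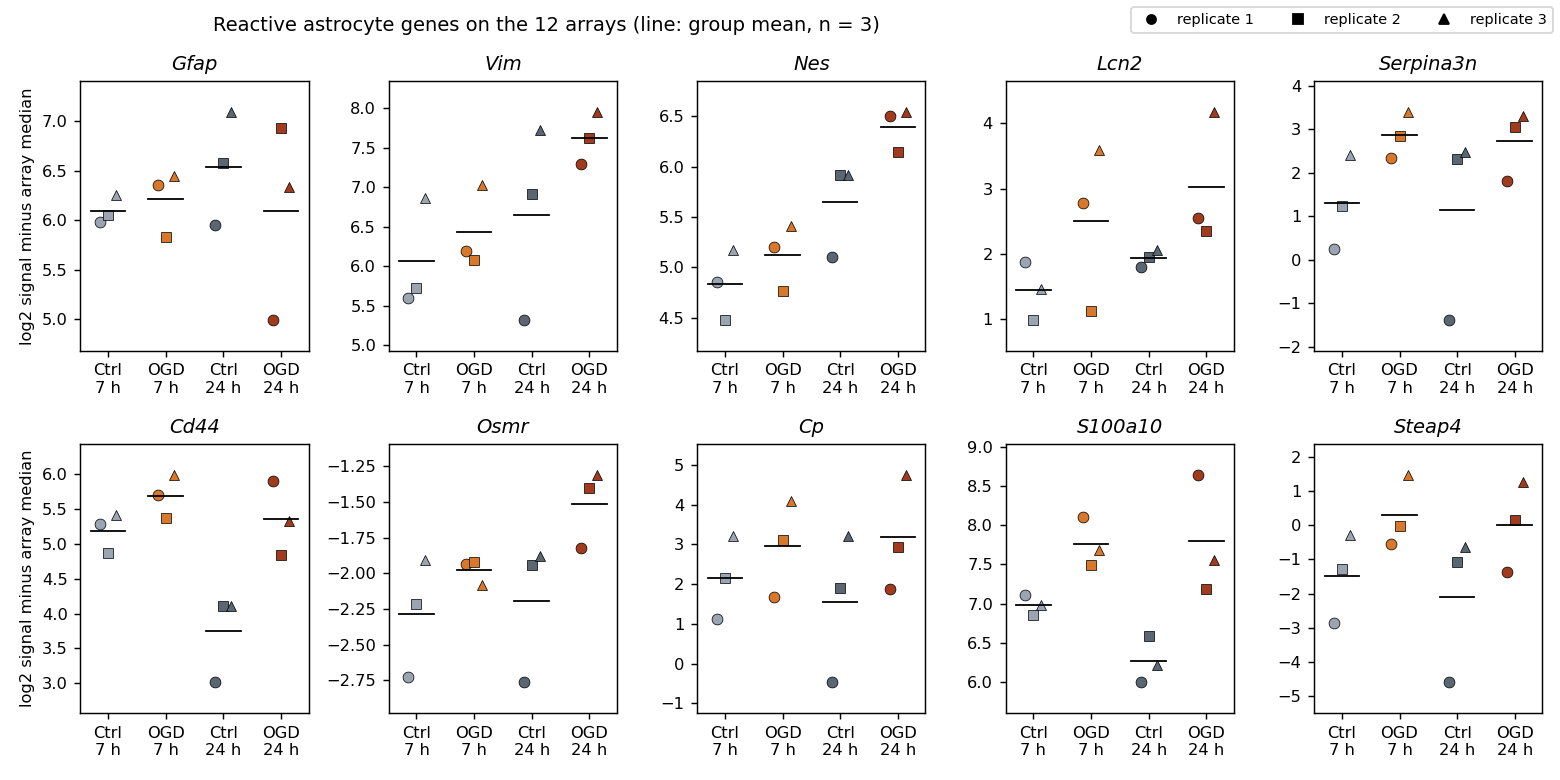
Log2 signal minus the array median of the 10 genes on the 12 arrays, with 1 panel per gene, 1 marker shape per replicate number and a line at the mean of each group (n = 3). At 24 h the OGD arrays lie above all Ctrl arrays for Nes, Lcn2, Cd44, Osmr and S100a10, and Ctrl 24 h replicate 1 is the lowest of the 12 arrays for Vim, Serpina3n, Cd44, Osmr, Cp, S100a10 and Steap4.

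These directions depend on how the arrays are scaled. When the arrays were scaled to the 1 usable spike-in control instead of their median, the median of all named genes fell to −0.91 at 7 h and −1.05 at 24 h, the median of the 10 genes was −0.17 and 0.28, and no gene was called. This scaling moves all genes of an array alike, so it cannot change where the 10 genes lie relative to the others. With median centring, all 10 genes at 7 h and 9 of 10 at 24 h lay above the median of all named genes, and with another background correction (normexp) 7 and 9 did. The share of calls over all probes that were higher in OGD was 55.5% at 7 h and 65.4% at 24 h with median centring, 67.0% and 74.9% with the 75th percentile, 20.7% and 3.72% with the spike-in, and 70.2% and 25.6% with normexp. Single arrays also weighed on the summary: the median of the 10 genes at 24 h was 0.55 without Ctrl 24 h replicate 1 and 0.83 without OGD 24 h replicate 3, and at 7 h it was 0.42 without Ctrl 7 h replicate 1 and 0.35 without OGD 7 h replicate 3.

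Among the filament genes, Gfap, which encodes glial fibrillary acidic protein, had signals of 5.98, 6.06 and 6.25 in Ctrl 7 h and 6.36, 5.83 and 6.45 in OGD 7 h. At 24 h its signals were 5.95, 6.58 and 7.09 in Ctrl and 5.00, 6.93 and 6.34 in OGD. The groups overlapped at both times, and the lowest of the 12 values was OGD 24 h replicate 1. The difference was 0.11 at 7 h (95% interval −0.87 to 1.1, limma adjusted p = 0.925) and −0.45 at 24 h (95% interval −1.44 to 0.54, limma adjusted p = 0.656). A rise or a fall within these limits was not excluded with 3 arrays per group. Without OGD 24 h replicate 1 the 24 h difference was 0.09, and without OGD 7 h replicate 3 the 7 h difference was −0.005. The sign at 7 h also turned with spike-in scaling (−0.69) and with normexp (−0.50).

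Vim, the gene of vimentin, had signals of 5.60, 5.72 and 6.87 in Ctrl 7 h and 6.19, 6.08 and 7.03 in OGD 7 h, with replicate 3 the highest in both groups. In Ctrl 24 h the signals were 5.32, 6.91 and 7.72, and in OGD 24 h they were 7.29, 7.62 and 7.95. The Ctrl arrays at 24 h spread over more than the OGD arrays did, and the groups overlapped. The difference of 0.97 at 24 h (SE 0.56) passed neither the 0.05 nor the 2-fold limit (limma adjusted p = 0.453) and was 0.31 without Ctrl 24 h replicate 1. At 7 h it was 0.37 (SE 0.56, limma adjusted p = 0.828), and spike-in scaling gave −0.44 at 7 h and −0.05 at 24 h.

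Nes, which encodes nestin, gave signals of 5.10, 5.92 and 5.92 in Ctrl 24 h and 6.505, 6.15 and 6.54 in OGD 24 h. Every OGD array was above every Ctrl array, with OGD replicate 2 the nearest to the Ctrl arrays. The difference was 0.75 (SE 0.28, limma adjusted p = 0.314), past an unadjusted p of 0.05 but under 2-fold, and without Ctrl 24 h replicate 1 it was 0.48 and passed neither. A second, dimmer Nes probe differed by 1.045 at 24 h (limma adjusted p = 0.313), past both limits but with overlapping groups. At 7 h the signals were 4.85, 4.48 and 5.17 in Ctrl and 5.199, 4.76 and 5.41 in OGD, which overlapped (0.29, SE 0.28, limma adjusted p = 0.714). Under spike-in scaling the Nes difference was −0.52 at 7 h and −0.27 at 24 h.

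Of the genes for secreted proteins, Lcn2 encodes lipocalin-2, an acute-phase protein that binds bacterial iron carriers. Its signals were 1.87, 0.99 and 1.46 in Ctrl 7 h and 2.77, 1.12 and 3.59 in OGD 7 h, and 1.80, 1.945 and 2.06 in Ctrl 24 h and 2.555, 2.35 and 4.17 in OGD 24 h. Replicate 3 was the highest of the OGD arrays at both times, and the groups separated at 24 h alone. The difference was 1.05 at 7 h (SE 0.61, limma adjusted p = 0.507) and 1.09 at 24 h (SE 0.61, limma adjusted p = 0.439). Leaving out OGD 7 h replicate 2 raised the 7 h value to 1.74, which was then called, and leaving out the replicate 3 array of OGD lowered it to 0.50 at 7 h and 0.52 at 24 h.

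Serpina3n, whose promoter is printed above, encodes a secreted serine protease inhibitor. In Ctrl 7 h it had signals of 0.25, 1.235 and 2.41, and in OGD 7 h 2.35, 2.84 and 3.39. In Ctrl 24 h the signals were −1.37, 2.32 and 2.49, and in OGD 24 h 1.815, 3.05 and 3.305. The Ctrl arrays differed among themselves more than the groups did, with replicate 1 the lowest of every group. The differences of 1.56 at 7 h (SE 0.94, limma adjusted p = 0.518) and 1.58 at 24 h (SE 0.94, limma adjusted p = 0.461) did not pass an unadjusted p of 0.05. They were 1.04 without Ctrl 7 h replicate 1 and 0.32 without Ctrl 24 h replicate 1.

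Cp encodes ceruloplasmin, a copper-carrying ferroxidase that astrocytes also hold on their surface. Its signals were 1.115, 2.14 and 3.20 in Ctrl 7 h and 1.68, 3.10 and 4.10 in OGD 7 h, and −0.47, 1.90 and 3.205 in Ctrl 24 h and 1.88, 2.92 and 4.75 in OGD 24 h. The order of the replicate numbers was the same in all 4 groups, and the groups overlapped at both times. Differences were 0.81 at 7 h (SE 1.02, limma adjusted p = 0.783) and 1.64 at 24 h (SE 1.02, limma adjusted p = 0.482), the latter 0.63 without Ctrl 24 h replicate 1. The 7 h value ran from 0.24 without OGD 7 h replicate 3 to 1.45 without OGD 7 h replicate 1. A second probe gave 0.59 and 0.93.

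At the cell surface, Cd44 encodes the receptor for hyaluronan. The signals were 5.285, 4.87 and 5.42 in Ctrl 7 h and 5.71, 5.38 and 5.99 in OGD 7 h, with OGD replicate 2 inside the Ctrl range. In Ctrl 24 h they were 3.015, 4.11 and 4.11, and in OGD 24 h 5.90, 4.84 and 5.335, so that the lowest OGD array exceeded the highest Ctrl array. Cd44 was 3.05-fold higher in OGD at 24 h (log2 difference 1.61, SE 0.36, limma adjusted p = 0.252), and 1.24 to 1.87 on the log2 scale when each array was left out in turn. The 3 other Cd44 probes were also called at 24 h (2.40-, 4.19- and 3.30-fold), each with all OGD arrays above all Ctrl arrays. The probes with 4.19- and 3.30-fold were not well above background on Ctrl 24 h replicate 1, so their folds rest partly on a signal near the floor. At 7 h the difference was 0.50 (SE 0.36, limma adjusted p = 0.589), while the other probes gave 0.795, 1.17 and 1.115 with separated groups, of which the last was called. Spike-in scaling gave −0.30 at 7 h and 0.59 at 24 h, where it was no longer called. Cd44 is listed in the study's tables of changed genes, which were drawn from these arrays, so its call is not independent evidence.

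Osmr, the oncostatin M receptor, had signals of −2.73, −2.21 and −1.91 in Ctrl 7 h and −1.94, −1.92 and −2.08 in OGD 7 h. At 24 h the signals were −2.76, −1.94 and −1.88 in Ctrl and −1.825, −1.40 and −1.31 in OGD. OGD lay above Ctrl throughout at 24 h, OGD replicate 1 only just, and overlapped it at 7 h. The difference was 0.68 at 24 h (SE 0.28, limma adjusted p = 0.337), past an unadjusted p of 0.05 but under 2-fold, and was 0.40 without Ctrl 24 h replicate 1, where it no longer passed. It was 0.30 at 7 h (SE 0.28, limma adjusted p = 0.694). With spike-in scaling it was −0.50 at 7 h and −0.34 at 24 h.

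S100a10 encodes p11, a small partner protein of annexin A2. Its signals were 7.10, 6.85 and 6.98 in Ctrl 7 h and 8.10, 7.49 and 7.68 in OGD 7 h, and 5.999, 6.59 and 6.22 in Ctrl 24 h and 8.64, 7.19 and 7.55 in OGD 24 h. The groups were separate at both times, replicate 1 being the highest OGD array each time. S100a10 was 2.88-fold higher in OGD at 24 h (log2 difference 1.52, SE 0.34, limma adjusted p = 0.252), with a range of 1.102 to 1.83 over the arrays left out in turn. At 7 h it was 1.71-fold higher (log2 difference 0.78, SE 0.34, limma adjusted p = 0.411), and its unadjusted p passed 0.05 in this fit and in 6 of the 12 fits that left out 1 array. Spike-in scaling gave −0.03 at 7 h and 0.50 at 24 h.

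Steap4, also among the promoters shown, encodes a membrane reductase of iron and copper ions. Ctrl 7 h signals were −2.85, −1.28 and −0.29, and OGD 7 h signals −0.53, −0.01 and 1.48. The signals in Ctrl 24 h were −4.59, −1.08 and −0.64, the first of them not well above background, and in OGD 24 h −1.37, 0.15 and 1.26. In each group the values ranged over more than the difference between the group means, and the groups overlapped at both times. The fitted differences, 1.79 at 7 h (SE 1.08, limma adjusted p = 0.521) and 2.12 at 24 h (SE 1.08, limma adjusted p = 0.41), were the highest of the 10 genes at each time and did not pass an unadjusted p of 0.05. Without Ctrl 24 h replicate 1 the 24 h difference was 0.87, and without Ctrl 7 h replicate 1 that at 7 h was 1.1. A dimmer second probe differed by 0.74 at 24 h, with the OGD arrays all higher and an unadjusted p under 0.05 (limma adjusted p = 0.329), and by 0.46 at 7 h.

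**Figure D2:**
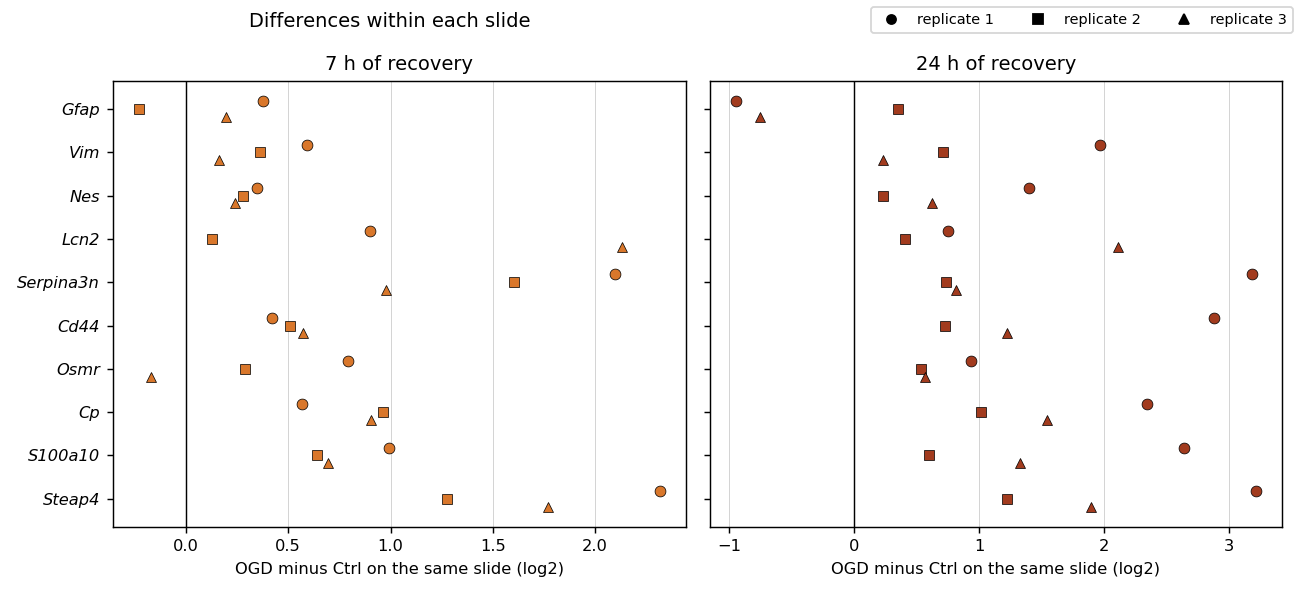
Difference in log2 signal between the OGD and the Ctrl array on the same slide, for each gene, with 3 slides per time and 1 marker shape per replicate number. All points lie above 0 except Gfap replicate 2 and Osmr replicate 3 at 7 h and Gfap replicates 1 and 3 at 24 h, and the replicate 1 slide at 24 h gives the highest value for Vim, Nes, Serpina3n, Cd44, Osmr, Cp, S100a10 and Steap4.

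Since every slide held both conditions, OGD was also compared with Ctrl slide by slide. At 7 h, 8 of the 10 genes were higher in OGD on all 3 slides (23.7% of all probes were), and at 24 h 9 of 10 (20.9% of all probes), Gfap being higher on 2 slides at 7 h and on 1 at 24 h and Osmr on 2 at 7 h. Steap4 differed by 2.315, 1.27 and 1.77 on the slides of 7 h and by 3.22, 1.23 and 1.90 on those of 24 h. For Cp the differences were 0.57, 0.96 and 0.90 at 7 h and 2.35, 1.02 and 1.54 at 24 h. For both genes these differences varied less from slide to slide than the Ctrl signals did. Serpina3n showed 2.10, 1.60 and 0.98 at 7 h, then 3.19, 0.74 and 0.82 at 24 h. Of the pair called above, Cd44 differed by 2.88, 0.73 and 1.22 at 24 h and S100a10 by 2.64, 0.60 and 1.33, the replicate 1 slide giving the highest value of both.

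With the slide as a block in limma, 2 of 10 genes were called higher at 7 h, Serpina3n (limma adjusted p = 0.425) and Steap4 (limma adjusted p = 0.398), where 2.08% of all probes were. At 24 h the block fit called 5 of 10, namely Cd44, Cp, S100a10 and Steap4 (limma adjusted p = 0.366 for each) and Serpina3n (limma adjusted p = 0.372), against 3.72% of all probes. The slide of Ctrl 24 h replicate 1 gave the highest difference of each of these 5, and no block fit was run without it. An unadjusted p under 0.05 in the same direction was reached by 3 of 10 genes at 7 h, Cp being the third (4.81% of all probes), and by 8 of 10 at 24 h (7.76% of all probes), with Vim, Nes and Osmr besides those called. S100a10 no longer passed at 7 h, and Lcn2 and Gfap passed at neither time. The standard error of Steap4 was 0.40 with the block and 1.08 without it, and that of Cp 0.28 and 1.02. None of the 10 genes passed after adjustment over all probes, of which 0% did. With the slide as a random block, no gene was called at 7 h and Cd44 and S100a10 alone at 24 h. That block sets a single correlation for all probes, estimated at 0.0176. The calls of Serpina3n, Cp and Steap4 were thus made with the fixed block and not with the random block. Without a block, these genes were also called at 24 h when Ctrl 24 h replicate 3 was left out. Steap4 was also called at 24 h with normexp, and Serpina3n at 7 h with each time fitted alone.

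**Figure D3:**
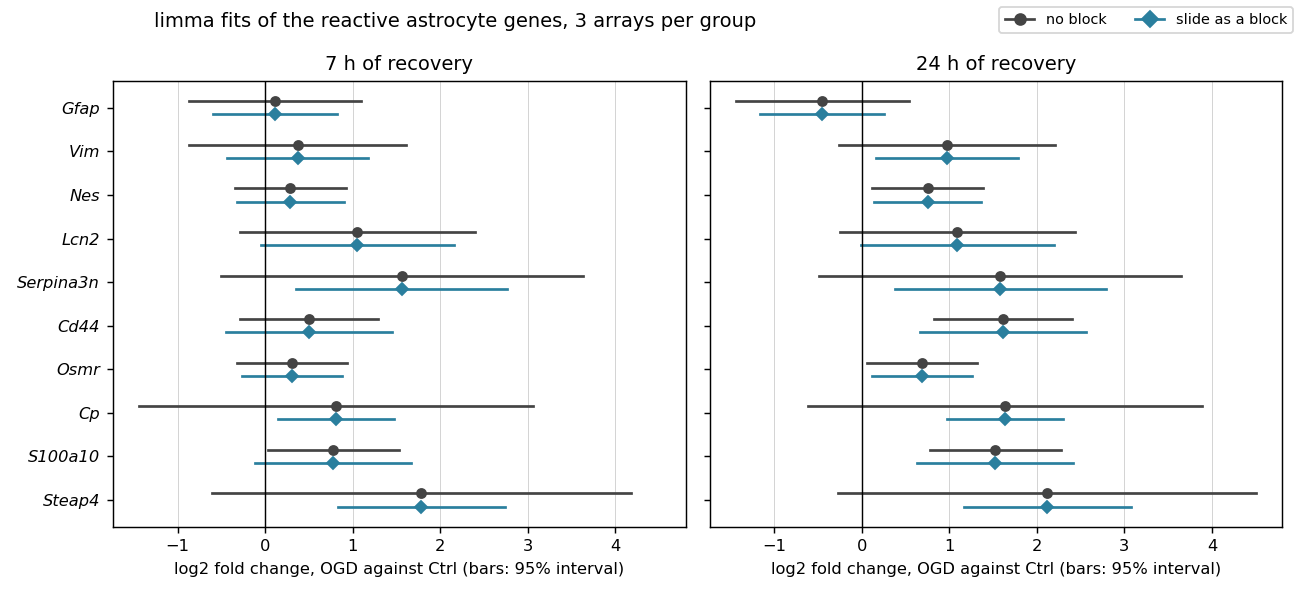
Fitted log2 fold change of OGD against Ctrl for each gene at 7 h and 24 h, with bars for the 95% interval, without a block (circles) and with the slide as a block (diamonds), from 3 arrays per group. The intervals of Serpina3n, Cp and Steap4 include 0 without the block and lie above 0 with it at both times, whereas those of Gfap include 0 in every fit.

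The difference between the 24 h and the 7 h response was tested as an interaction, and it passed an unadjusted p of 0.05 in none of the 10 genes, against 3.58% of all probes (limma). Cd44 came nearest, just missing that limit with a response 1.11 higher at 24 h (SE 0.50, limma adjusted p = 1). Leaving out Ctrl 7 h replicate 2, OGD 7 h replicate 3, Ctrl 24 h replicate 2 or 3, or OGD 24 h replicate 2 brought 1 or 2 of the 10 genes past it. For Gfap the value was −0.565 (SE 0.63, limma adjusted p = 1). The other 8 genes had values from 0.02 for Serpina3n to 0.825 for Cp. A change of response between the times was therefore not detected in these genes, and the intervals were wide.

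The controls themselves differed between the times. Cd44 fell by 1.44 from Ctrl 7 h to Ctrl 24 h (SE 0.36, limma adjusted p = 0.124), and it was the 1 gene of the 10 called in this comparison, in which 4.93% of all probes were. S100a10 differed by −0.71 (SE 0.34, limma adjusted p = 0.366) and Nes by 0.81 (SE 0.28, limma adjusted p = 0.253), the latter past an unadjusted p of 0.05 but under 2-fold. Cd44 at 24 h was thus 5.36 ± 0.53 in OGD and 3.75 ± 0.63 in Ctrl, next to 5.69 ± 0.31 and 5.19 ± 0.29 at 7 h (mean ± SD, n = 3). The times lay on different slides, so time and slide cannot be told apart. Without Ctrl 24 h replicate 1 the comparison called 3 genes.

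Across the 12 arrays the 10 genes varied in sets. Serpina3n, Cp and Steap4 were the most alike (Pearson r of 0.97 for Serpina3n with Steap4, 0.95 for Cp with Steap4 and 0.90 for Serpina3n with Cp). Vim followed Nes (r = 0.86) and Osmr (r = 0.855), and Cd44 followed S100a10 (r = 0.88). Gfap was the least like the others, with r from −0.50 with S100a10 to 0.39 with Vim. The 12 arrays share slides and conditions, and these values are descriptions over 4 groups without a test.

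The genes whose signal was most like that of Gfap among 10903 named genes well above background on all arrays were Tst (r = 0.92), Cyp2d4 (r = 0.915), Phyh (r = 0.90), Lgi4 (r = 0.90) and Cd81 (r = 0.89), over the same 12 arrays. Tst encodes a mitochondrial sulfurtransferase, Phyh a peroxisomal hydroxylase and Cd81 a tetraspanin. None of these 5 passed the test in OGD, with differences from −0.74 for Lgi4 to −0.05 for Cd81 at 24 h and from −0.265 for Lgi4 to 0.085 for Cd81 at 7 h.

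Proteins that work with those of the 10 genes formed a list of 9 genes, all with a probe. By the 2-fold rule 2 of them were up-regulated at 7 h (2.08% of all probes were) and 3 at 24 h (3.71% of all probes). None was down-regulated, and the median was 0.165 and 0.27. For the separate groups given below, all OGD arrays lay above all Ctrl arrays in 10.6% of all probes at 7 h and 10.9% at 24 h. Anxa2, whose protein annexin A2 binds p11, had signals of 3.85 to 5.66 in Ctrl 7 h, 5.74 to 6.43 in OGD 7 h, 2.28 to 4.44 in Ctrl 24 h and 5.43 to 6.61 in OGD 24 h. The groups were separate at both times, with differences of 1.55 at 7 h (SE 0.59, limma adjusted p = 0.355) and 2.48 at 24 h (SE 0.59, limma adjusted p = 0.252). Has2, a synthase of the hyaluronan that CD44 binds, was higher by 1.304 at 7 h (limma adjusted p = 0.337) and by 1.11 at 24 h (limma adjusted p = 0.348). The groups were separate at both times, at 24 h with the lowest OGD array at −3.14 and the highest Ctrl array at −3.16. Plec, whose product plectin links intermediate filaments, was higher by 1.14 at 24 h (limma adjusted p = 0.28) and differed by 0.81 at 7 h (limma adjusted p = 0.408), under 2-fold. Without single arrays the number called ranged from 0 to 3 at 7 h and from 1 to 4 at 24 h, the lowest being without Ctrl 7 h replicate 2 and Ctrl 24 h replicate 1.

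Other genes known to rise in reactive astrocytes of either kind (pan-reactive) numbered 5, of which 4 had a probe, with medians of 0.87 at 7 h and 1.21 at 24 h. None was called at 7 h and 2 were up-regulated at 24 h (3.71% of all probes were). Timp1, an inhibitor of matrix metalloproteinases, had signals of 5.88 to 7.28 in Ctrl 24 h and 7.72 to 8.44 in OGD 24 h, which did not overlap (1.23, SE 0.38, limma adjusted p = 0.284), and differed by 0.92 at 7 h (limma adjusted p = 0.391). Cxcl10, an interferon-induced chemokine, was higher by 2.92 at 24 h (SE 0.93, limma adjusted p = 0.29) with separate groups, and differed by 1.88 at 7 h (limma adjusted p = 0.458). Leaving out Ctrl 24 h replicate 1 left 1 of these calls.

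A list of 11 genes first described in astrocytes after ischemia (called A2) had 9 with a probe, with medians of 1.03 at 7 h and 0.68 at 24 h. Of these, 4 were up-regulated at 7 h (2.08% of all probes were) and 2 at 24 h (3.71% of all probes). At 24 h 1 was down-regulated (1.96% of all probes). Tm4sf1, a tetraspanin-like membrane protein, was higher by 1.98 at 7 h (SE 0.42, limma adjusted p = 0.196) and by 2.22 at 24 h (SE 0.42, limma adjusted p = 0.252), its lowest OGD array being above the highest Ctrl array at each time. Emp1, an epithelial membrane protein, was higher by 1.71 at 7 h (limma adjusted p = 0.196) and by 1.65 at 24 h (limma adjusted p = 0.252), again without overlap. Tgm1, a transglutaminase, was higher by 1.21 at 7 h (limma adjusted p = 0.196) and differed by 0.68 at 24 h, and Ptx3, which completes the 4 and was named after its value was seen, was higher by 1.17 at 7 h (limma adjusted p = 0.397). Ptgs2, the inducible cyclooxygenase, was down-regulated at 24 h, with signals of −1.34 to −0.53 in Ctrl and −2.31 to −1.88 in OGD (fell by 1.08 on the log2 scale, SE 0.25, limma adjusted p = 0.252). The number called at 7 h fell to 2 without Ctrl 7 h replicate 2.

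Of 11 genes first described in astrocytes after lipopolysaccharide (called A1), 10 had a probe, with medians of 0.27 at 7 h and 0.35 at 24 h. None passed an unadjusted p of 0.05 at 7 h in limma, and 2 were down-regulated at 24 h (1.96% of all probes were). These were Amigo2, an adhesion molecule (fell by 1.84, SE 0.82, limma adjusted p = 0.36), and Fbln5, an elastic-fiber protein (fell by 1.09, SE 0.47, limma adjusted p = 0.352), both with overlapping groups. Neither was called without Ctrl 7 h replicate 1 or without OGD 7 h replicate 1. C3, the complement component used as a marker of this list, differed by 1.43 at 7 h (limma adjusted p = 0.604) and 1.56 at 24 h (limma adjusted p = 0.512), and is named after its values were seen.

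**Figure D4:**
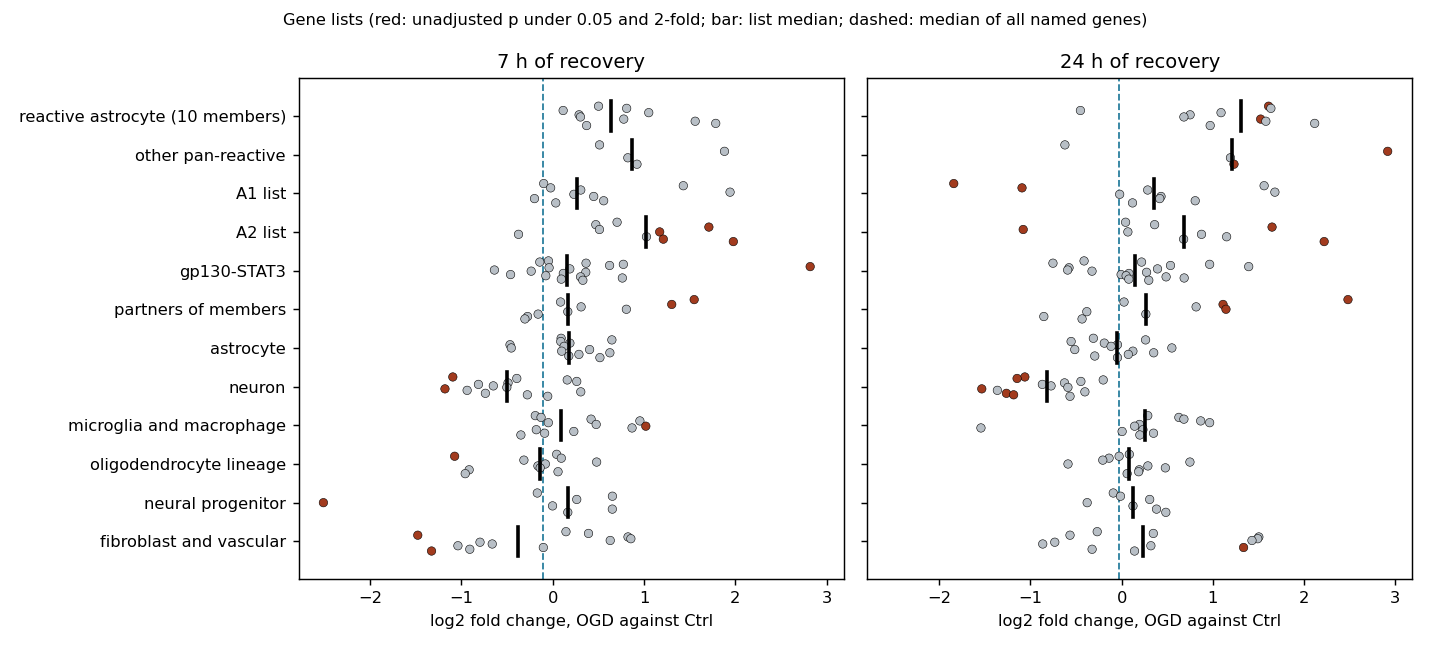
Log2 fold change of OGD against Ctrl for each gene of the lists at 7 h and 24 h, with 1 point per gene, red where the unadjusted p was under 0.05 with a 2-fold change, a bar at the list median and a dashed line at the median of all named genes. The medians of the 10 reactive astrocyte genes (0.64 and 1.31) lie to the right of the dashed line, and those of the neuronal genes (−0.50 and −0.82) to its left.

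In the gp130 and STAT3 pathway, 18 of 19 listed ligands, receptors and regulators had a probe, and their medians were 0.15 at both times. Il6, the ligand interleukin-6, was not well above background on any Ctrl 7 h array and was so on 2 of the 3 OGD 7 h arrays, at least 3.29-fold higher (limma adjusted p = 0.24). It was the only one of the 18 called at 7 h, and none was called at 24 h, where 2 of the 18 passed an unadjusted p under 0.05 in limma. Socs3, the feedback inhibitor induced by STAT3, differed by 0.76 at 7 h (limma adjusted p = 0.343) and 0.69 at 24 h (limma adjusted p = 0.334), and the other gene at 24 h was Cish (−0.41, limma adjusted p = 0.363), both named after their values were seen. Stat3 itself differed by 0.33 and 0.30, and the shared receptor Il6st by 0.19 and 0.39, neither passing the test. Of the genes named in these lists, Cxcl10, Tgm1, Ptx3, Ptgs2, C3 and Il6 also stand in the study's tables drawn from these arrays, so their calls are not independent evidence.

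Astrocyte identity genes, which mark the cells whether reactive or not, were measured beside them. Of 14 listed, 13 had a probe and 12 were well above background on all 12 arrays, so astrocyte RNA was present in cultures labeled as neurons. None was called at either time, and the medians were 0.18 at 7 h and −0.04 at 24 h. Slc1a3, a glutamate transporter, and Aldoc, a glycolytic aldolase, had the lowest p of the list, both at 7 h (0.52, limma adjusted p = 0.352 and 0.65, limma adjusted p = 0.398). The mean signal of the 13 genes was 5.23 to 5.44 in Ctrl 7 h, 5.35 to 5.61 in OGD 7 h, 5.21 to 5.68 in Ctrl 24 h and 4.71 to 5.89 in OGD 24 h, and the groups overlapped at both times. The mean of the 10 reactive genes was 2.65 to 3.56, 3.47 to 4.30, 1.80 to 3.63 and 3.64 to 4.59 in the same groups. These means overlapped at 7 h, and at 24 h the lowest OGD array (3.639) was barely above the highest Ctrl array (3.63).

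**Figure D5:**
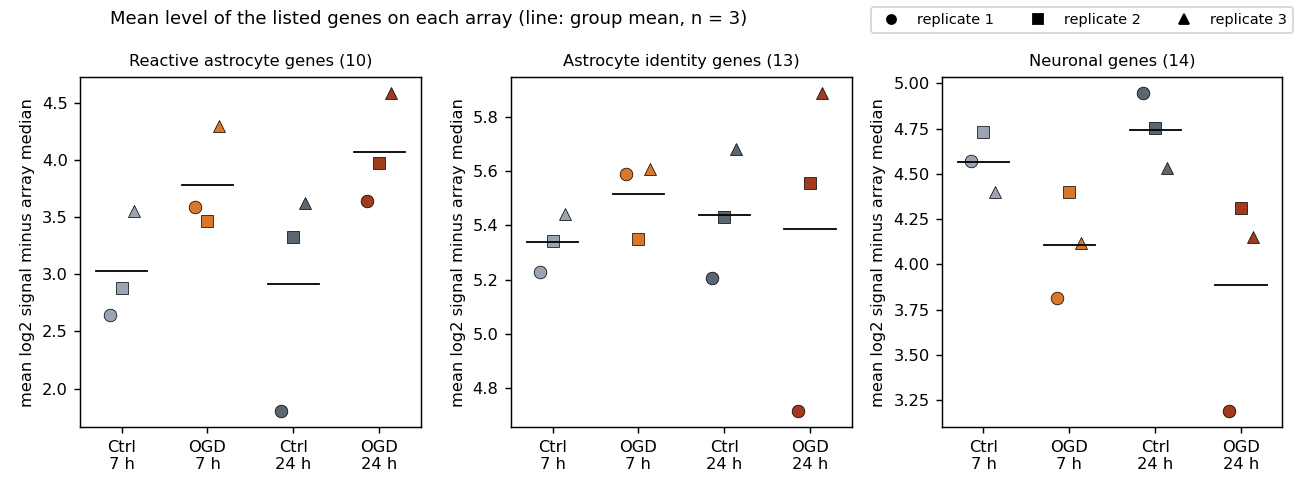
Mean log2 signal minus the array median of the 10 reactive astrocyte genes, the 13 astrocyte identity genes and the 14 neuronal genes on each of the 12 arrays, with a line at the group mean (n = 3) and separate vertical scales. The reactive genes overlap at 7 h, and at 24 h the lowest OGD mean (3.639) is just above the highest Ctrl mean (3.63). The identity genes overlap at both times, and OGD 24 h replicate 1 has the lowest mean of both the identity and the neuronal genes.

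Markers of other cell types were measured on the same arrays. Neuronal genes (14, all well above background on every array) had medians of −0.50 at 7 h and −0.82 at 24 h. By the 2-fold rule 2 were down-regulated at 7 h (1.66% of all probes were) and 5 at 24 h (1.96% of all probes). Slc17a7, a vesicular glutamate transporter, fell by 1.18 and 1.53, Syn1 by 1.26 and Syt1 by 1.18, the latter pair, both synaptic vesicle proteins, at 24 h alone by the 2-fold rule. Single arrays moved these counts: none was called at 7 h without Ctrl 7 h replicate 2 or without OGD 7 h replicate 1, and at 24 h 3 were without Ctrl 24 h replicate 1 and 2 without OGD 24 h replicate 1, where the median was −0.46. The summed level of the 14 genes was 9.93 to 10.36 in Ctrl 24 h and 9.05 to 9.89 in OGD 24 h. Fibroblast and vascular genes, which share Vim, Cd44 and S100a10 with astrocytes, had a summed level of 5.27 to 7.16 in Ctrl 24 h and 7.04 to 7.90 in OGD 24 h, and of 5.47 to 7.19 and 5.95 to 7.55 at 7 h. Of these 12 genes, 9 were well above background on all arrays. The list median was −0.38 at 7 h, with 7 genes negative and 2 called lower (Cldn5 and Rgs5), and 0.23 at 24 h, with 7 positive and 5 negative. At 24 h 1 was up-regulated, Pdgfrb, the receptor of pericytes (1.34, limma adjusted p = 0.269), and it was not called without Ctrl 24 h replicate 1. The collagen genes Col1a1, Col1a2 and Col3a1 differed by 1.504, 1.49 and 1.43 without passing, and Kdr, Dcn, Cldn5 and Pecam1 by −0.86, −0.73, −0.565 and −0.32. With the slide as a block, which called 5 of the 10 reactive genes at 24 h, 4 of these 12 were called higher, namely Pdgfrb and the 3 collagen genes (limma adjusted p = 0.366 for each). Microglial genes had a summed level of 4.38 to 4.675 in Ctrl 24 h and 4.66 to 5.14 in OGD 24 h, 7 of 12 being well above background throughout and Ptprc on no array. Cx3cr1, a chemokine receptor of microglia, was higher at 7 h (1.02, limma adjusted p = 0.263), the 1 gene of the 12 called, and was not called without Ctrl 7 h replicate 1 or 3 or OGD 7 h replicate 1 or 2. None of the 12 was called at 24 h in limma, where 1 passed an unadjusted p of 0.05. This was Cd68 (0.965, limma adjusted p = 0.332), named after its value was seen. The microglial list median was 0.09 at 7 h, with 6 genes positive and 6 negative, and 0.26 at 24 h, with 11 positive and 1 negative. The part of these other cells, and of the lower neuronal signal on arrays set to a common median, in the values of the 10 genes was not tested.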

How the data were processed

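RNA of 3 hippocampal cultures per group was labeled with Cy3 and hybridized to 12 one-color Agilent rat arrays. The deposited intensity values (processed signal) came from Agilent Feature Extraction 10.5.1.1, run by the authors, in which background is subtracted but arrays are not normalized to each other. A table of log2 values was deposited too. These are the same intensities median-centred by the authors in BRB-ArrayTools 3.8.1, and for 100% of probes they differed from the log2 intensity by 1 constant per array within 0.01. Precision is limited by the 3 arrays of a group.

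Flagged spots (non-uniform, or outliers of their probe's population) were dropped, log2 intensities were averaged per probe, and each array was centred on its median over 30367 non-control probes. Probes were named through their RefSeq accession (18004 probes, 15154 symbols) with the RefSeq gene table of build GRCr8, and 12363 probes stayed unnamed. A single limma 3.58.1 model (R 4.3.3) held the 4 groups, moderated by empirical Bayes. The p-values are two-sided and measure the spread between 3 cultures per group. Adjustment was by the Benjamini-Hochberg method over all probes. A gene was called at an unadjusted p under 0.05 with a fold of at least 2, as in the study's methods. The slide was added as a fixed block for comparisons within a time. Where no array of a group was well above background, a lower bound of the fold was computed against the lowest signal called well above background. The fit without a block was tested on simulated data with independent arrays. That simulation does not test the slide block, the scaling or the effect of an array that stands apart.

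The 10 genes and the lists were chosen with earlier results of these data known, and no p was adjusted over a list alone. Named were the 10 genes, up to 3 genes per list and direction with the largest fold among those called, the 2 with the lowest p in a list without any, and the 5 genes most correlated with Gfap. As alternatives, arrays were centred on the 75th percentile, quantile-normalized or scaled to the spike-in (1 of 10 kinds, the others being dim or saturated), background was corrected by normexp with an offset of 50, dim probes were filtered, and the authors' log2 values were used. The test was replaced by the methods' t-test, by limma on each time alone, or by a block for replicate number or slide. A gene's probes were averaged, and arrays were left out in turn. Normexp was run on the median spot signal in place of the mean that had been planned. Leaving out the 3 OGD arrays scanned apart was chosen after seeing the data.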

Additional observations from a re-analysis of the deposited data

How the results depend on the processing

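Each result was recomputed under the alternatives. Of the values of the 10 genes at both times under the alternatives, 431 kept their direction and side of the unadjusted threshold, 30 passed it newly, 23 no longer passed and 16 turned sign, 9 of them under spike-in scaling, which moves all genes of an array alike. The number of genes called at 7 h, 0 in the reported fit, was 1 with each time alone, 2 with the replicate number as a block, 2 with the slide as a block, 1 without the 3 OGD arrays scanned apart, and 0 to 1 when each array was left out. The number called at 24 h, 2 as reported, was 0 with spike-in scaling, 6 with the replicate block, 5 with the slide block, and 2 to 6 when each array was left out, the highest without Ctrl 24 h replicate 3. The count of genes whose response differed between the times, 0 as reported, was 1 with normexp, 1 without dim probes, 1 with the slide as a random block and 0 to 2 when each array was left out. Between the Ctrl groups, 1 gene was called as reported, 10 with spike-in scaling and 1 to 3 when each array was left out. The log2 spike-in signal relative to its mean over the 12 arrays was −2.88 to −1.92 on the Ctrl 7 h arrays. It was 1.77 to 2.27 on the Ctrl 24 h arrays, which fixes those 10 calls. Cd44 and S100a10 were called at 24 h under every alternative run except spike-in scaling.

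Spike-in scaling turned the median at 7 h (−0.167), Gfap (−0.693), Vim (−0.436), Nes (−0.519), Cd44 (−0.305), Osmr (−0.504) and S100a10 (−0.030) at 7 h, and Vim (−0.054), Nes (−0.274) and Osmr (−0.342) at 24 h. Normexp turned Gfap (−0.504), Vim (−0.231), Nes (−0.252) and Cd44 (−0.084) at 7 h. With each array left out, Gfap ranged from −0.005 to 0.306 at 7 h and from −0.873 to 0.093 at 24 h, and it was 0.093 at 24 h without the arrays scanned apart. The causes were not tested. Same-numbered Ctrl and OGD arrays deviated from their group means with correlations of −0.049, 0.112 and −0.010 in the 7 h groups. In the 24 h groups the correlations were 0.084, 0.169 and −0.011, and not every array correlated best with its own number. Such correlations, taken over all probes in groups of 3 arrays, cannot decide whether a shared number marks a shared culture. Signal over background limited Il6, Hes5, Cldn5 and Rgs5, which were dim in at least 1 group.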

Other observations

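Single markers of progenitors, oligodendrocyte precursors and vessels were called lower at 7 h, while some other genes of their lists had positive differences. In limma, 1 progenitor gene passed an unadjusted p of 0.05 with higher signal in OGD at 7 h. No gene of the oligodendrocyte or the fibroblast and vascular list did. At 7 h the progenitor list had 4 genes positive and 3 negative (median 0.165). The oligodendrocyte lineage had 4 positive and 7 negative (median −0.14), and the fibroblast and vascular list 5 and 7 (median −0.38). Hes5, a Notch target of neural progenitors, was well above background on all 3 Ctrl 7 h arrays and on none of OGD 7 h, at least 1.81-fold lower (limma adjusted p = 0.227), and differed by −0.38 at 24 h (limma adjusted p = 0.799). Cspg4, the proteoglycan of oligodendrocyte precursors, fell by 1.07 at 7 h (limma adjusted p = 0.322) and differed by −0.03 at 24 h (limma adjusted p = 1). Cldn5, a tight junction protein of endothelium, was at least 1.17-fold lower at 7 h (limma adjusted p = 0.226). Rgs5, a pericyte marker, passed the rule at 7 h, but it was well above background on 1 Ctrl array and on no OGD array, and no fold is given. In the test of the difference between the 24 h and 7 h responses, Hes5 passed an unadjusted p of 0.05 and the other 3 did not, and none passed after adjustment (limma adjusted p = 1 for each).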
